A study of Drosophila melanogaster with 4 samples.

Results

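Of 8273 enriched RNA polymerase II (Pol II) regions in the replicate set list, 557 were under 10 kb wide and lay in stretches of 100 kb that Pol II covered densely. The arms 2L, 2R, 3L, 3R and X and chromosome 4 were tiled from base 1 into 1208 windows of 100 kb, the last of each arm being shorter. A window was called dense when at least 40% of its bases lay inside enriched regions of both ChIP replicates, which held for 60 windows (4.97% of those tested). A region belonged to the set when its midpoint fell in a dense window. The regions set against them are the other 7093 enriched regions under 10 kb on the same 6 arms. The data are Pol II ChIP-seq on nuclei from Drosophila melanogaster, wild-type Oregon-R larvae of instar 3, with an antibody labelled RNA Pol II from abcam. There were 2 ChIP replicates and 2 input libraries, all from the same genotype and stage; input 2 served ChIP 1 and input 1 served ChIP 2. The labels give the source as nuclei of larvae and name no tissue or cell type, so more cells with Pol II at a region and more Pol II per cell cannot be told apart.

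Pol II transcribes protein-coding genes and many non-coding RNAs. In Drosophila it is known to gather just downstream of start sites, where it can pause, and to spread along the body of strongly transcribed genes. Fly genes are compact and often lie close together, so neighbouring active genes can give neighbouring or merged regions of Pol II. Coordinates below are on FlyBase release 5, per the file headers. No gene positions on that release were used here, so regions are given by position and not by gene.

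The windows were chosen by their coverage in both replicates. Coverage, the number and spacing of regions, their width and their score all come from the same comparison of ChIP with input, so they are given as descriptions without a test. The score is the authors' log2 value per region, read here as ChIP over input reads, and a fold is 2 to the power of the score. Scores are compared only within a list, since each list carries its own constant. Reads recovered from the scores of enriched regions are lower limits. For ChIP they were 5.06 M (replicate 1), 4.70 M (replicate 2) and 10.8 M (replicate set), and for input 1.97 M, 1.93 M and 4.86 M; full library depth is unknown. Intervals cover counting error only, and the reads are not known to be independent molecules.

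The dense windows took 4.94% of the bases of the 6 arms and held 13.5% of all bases covered by replicate 1 and 14.1% of those covered by replicate 2. Their median coverage was 52.6% in replicate 1 and 48.6% in replicate 2, against 16.4% and 14.0% in the other 1148 windows. Replicate 1 covered more than replicate 2 in 47 of the 60, as it did in 805 of all 1208 windows. Coverage common to both replicates ran from 40.1% to 75.4% among dense windows, with a median of 45.0%; 13 windows reached 50% and 4 reached 60%. The 3 windows just inside the threshold were 1300001 to 1351857 on chromosome 4 (40.07%), 16600001 to 16700000 on 3R (40.24%) and 5000001 to 5100000 on 2R (40.25%). The 3 just outside were 6000001 to 6100000 on 2L (39.99%) and, on the X, 500001 to 600000 (39.66%) and 2000001 to 2100000 (39.63%). The threshold therefore cuts a continuous range. The window on chromosome 4 is the short last window of that chromosome, 51857 bp long.

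**Figure D1:**
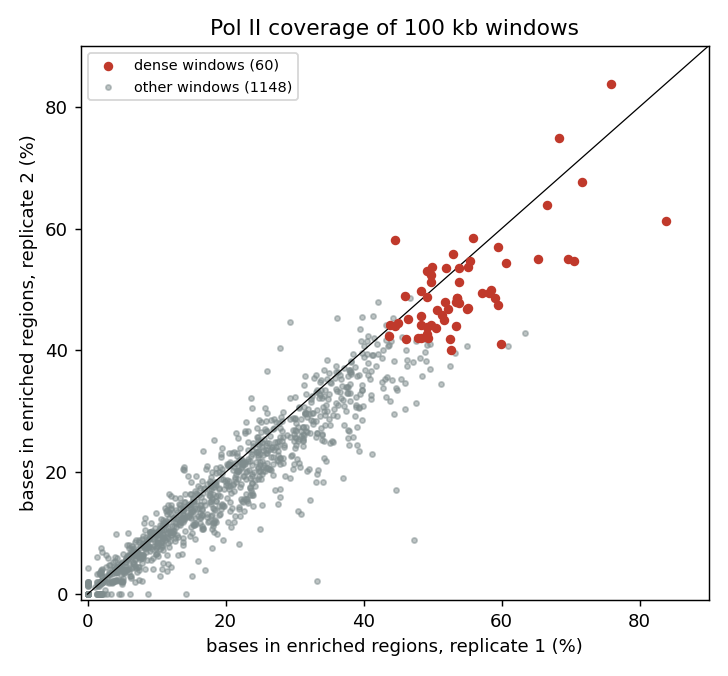
Percent of bases inside enriched regions in replicate 1 (x axis) and replicate 2 (y axis) for each 100 kb window; the line marks equal coverage. The 60 dense windows sit in the upper part of a continuous spread, and 47 of them lie below the line, where replicate 1 covers more. Dense windows are set by bases common to both replicates, so some windows at least 40% covered in each replicate are not among them.

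Dense windows were found on every arm. The arm 2R had 18 of its 212 windows dense (8.49%) and 173 of the 557 regions. On 3R 14 of 280 windows were dense (5.00%), with 125 regions, and on 2L 10 of 231 (4.33%), with 98. The X had 9 of 225 (4.00%) and 69 regions, 3L had 8 of 246 (3.25%) and 89 regions, and chromosome 4 had 1 of 14 and 3 regions. Among the large arms, dense windows held from 8.61% (3L) to 18.4% (2R) of an arm's covered bases in the replicate set. With each of the 5 large arms cut into 4 equal parts, the part next to the telomere held 24 dense windows of 299 (8.03%). The following parts held 13 of 297 (4.38%) and 13 of 298 (4.36%), and the part next to the centromere 9 of 300 (3.00%). The arms differed in this. On 2L 6 of 10, on 3L 4 of 8 and on the X 5 of 9 lay in the telomeric part. From the telomeric to the centromeric part, 2R had 6, 4, 5 and 3 dense windows and 3R had 3, 3, 4 and 4.

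The densest window of all was on 3R from 26100001 to 26200000, with 75.9% of its bases covered in replicate 1 and 83.7% in replicate 2. On 2R it was the window from 3600001 to 3700000, with 68.3% in replicate 1 and 74.9% in replicate 2. On the X the window from 1500001 to 1600000 had 66.6% and 63.9% in these replicates. On 2L it was 5100001 to 5200000 with 69.6% and 55.0%, and on 3L 17900001 to 18000000 with 53.0% and 55.8%. The other windows among the 5 densest were 3R from 11100001 to 11200000, with 71.6% in replicate 1 and 67.7% in replicate 2, and the X from 19500001 to 19600000. That last window had 83.8% in replicate 1 and 61.2% in replicate 2, and the gap of 22.6 percentage points was the widest between replicates among the dense windows. The replicates lay within 5 points of each other in 29 of the 60 and over 10 points apart in 10.

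Dense windows formed no long runs, but in this tiling lay next to each other more often than the other windows lay next to one. Of the 60, 48 had no dense neighbour, and the other 12 formed 6 adjacent pairs; there was no run of 3. A dense neighbour was thus present for 20.0% of the dense windows (95% Wilson interval 11.8 to 31.8), against 8.97% of the other 1148 windows (103 windows). The interval takes windows as independent, but each of the 6 pairs enters it from both sides, so it may be too narrow. With the tiling shifted by 50 kb the share of dense windows with a dense neighbour was 14.0%. The pairs lay on 2L from 100001 to 300000 and from 5000001 to 5200000, on 2R from 19800001 to 20000000, on 3L from 3000001 to 3200000 and from 9300001 to 9500000, and on 3R from 11000001 to 11200000. Within 5 windows, 55.0% of the dense windows had another dense window on the same arm, against 33.8% of the others. Looser groups occurred in some megabases. The X held 4 dense windows between 1000001 and 2000000 and 3 between 6000001 and 7000000, 2R held 3 between 5000001 and 6000000, and 2L held 3 in its first megabase. Of 124 megabase bins, 44 had a dense window, 11 had at least 2 and these 4 had at least 3. Between neighbouring dense windows of an arm the median distance was 800 kb, with quartiles of 225 and 2650 kb. The longest stretch with no dense window was 12.8 Mb on the X, from 6700001 to 19500000, followed by 8.4 Mb on 3L from 9500001 to 17900000 and 7.2 Mb on 2L from 5200001 to 12400000. On 2R no such stretch was longer than 2.5 Mb.

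Coverage 1 window away from a dense one was only a little above the mean of all 1208 windows, which was 19.9% in replicate 1 and 17.5% in replicate 2. Dense windows had mean coverage of 54.4% in replicate 1 and 50.1% in replicate 2, against 22.4% and 19.2% in the 103 windows directly beside one. At 2 windows away the means were 20.5% and 17.4%, and in the 533 windows over 10 windows away they were 16.4% and 14.5%. Of the 103 flanking windows, 27 had under 10% of their bases common to both replicates, or 26.2%, where 39.9% of all windows did. In 5 of them no base was common to both replicates. On 2R the windows 9600001 to 9700000 and 15400001 to 15500000 had no covered base in either replicate, although each touched a dense window. The window on 2L from 19600001 to 19700000 had 1.70% in replicate 1 and none in replicate 2.

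**Figure D2:**
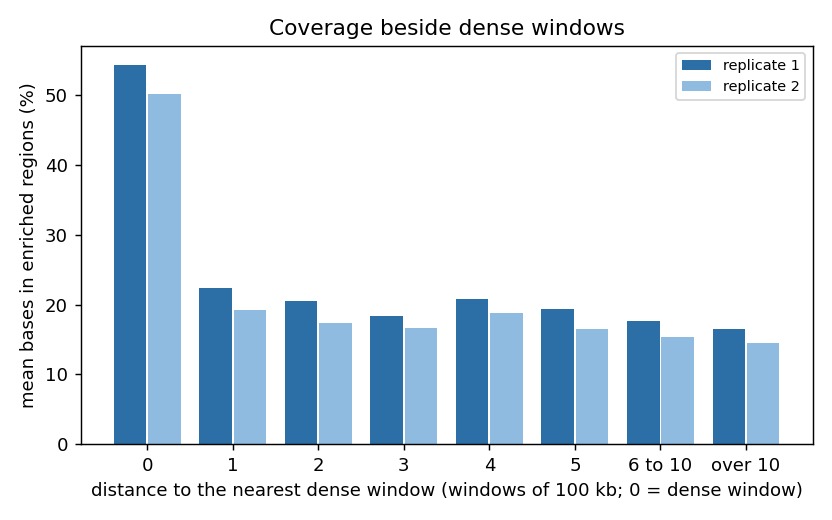
Mean percent of bases inside enriched regions in replicate 1 and replicate 2, by distance from the nearest dense window in windows of 100 kb. Dense windows (distance 0) stand at 54.4% and 50.1%, the next window at 22.4% and 19.2%, and windows further out between 14.5% and 20.8%.

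Dense windows held more regions and wider ones. In replicate 1 they had 11.4 regions per 100 kb against 5.79 in the other windows, and in replicate 2 they had 10.2 against 5.04. Regions of 10 kb or more showed the larger contrast, with 1.08 per 100 kb against 0.126 in replicate 1 and 0.840 against 0.119 in replicate 2. Such wide regions, which are not among the 557, took 31.8% of the covered bases of dense windows in replicate 1 and 30.7% in replicate 2, against 9.83% and 10.97% in the other windows. In the replicate set list they took 45.0% against 16.1%. In that list a region of 10 kb or more had its midpoint in 58 of the 60 dense windows. Dense windows had a mean of 1.5 such regions and a median of 1. Windows with 30 to 40% of bases common to both replicates had a mean of 0.882 and also a median of 1. All 1148 windows that were not dense had a mean of 0.226 and a median of 0. Among dense windows, such a region was absent by midpoint from 2R 7100001 to 7200000 and 3R 200001 to 300000, which held 14 and 13 smaller regions. The lists differed in this respect, since 8 dense windows had no base inside a wide region in either single replicate.

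Between the upper coverage classes the count of smaller regions changed little while that of wide ones kept growing. In replicate 1, regions under 10 kb numbered 2.53, 6.51, 8.87, 10.2 and 10.3 per 100 kb in windows covered under 10%, 10 to 20%, 20 to 30%, 30 to 40% and at least 40%. In replicate 2 the series was 2.04, 5.69, 7.87, 9.03 and 9.39. Regions of 10 kb or more numbered 0.00417, 0.0876, 0.242, 0.513 and 1.08 per 100 kb over the same classes in replicate 1, and 0.00417, 0.0634, 0.256, 0.487 and 0.840 in replicate 2. Since covered bases define the classes, a class with more coverage must have more regions, wider regions or both.

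**Figure D3:**
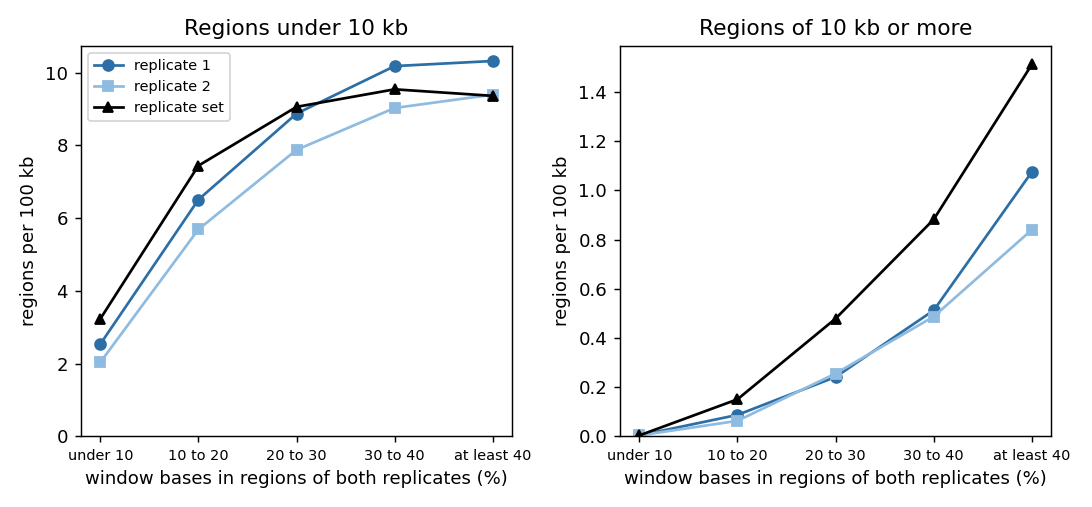
Regions under 10 kb (left) and of 10 kb or more (right) per 100 kb, by the share of window bases inside regions of both replicates, for each replicate and the replicate set. The left lines level off above 30%, at 9.03 to 10.3 regions per 100 kb in the last 2 classes, while the right lines climb to 0.840, 1.08 and 1.51.

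**Figure D4:**
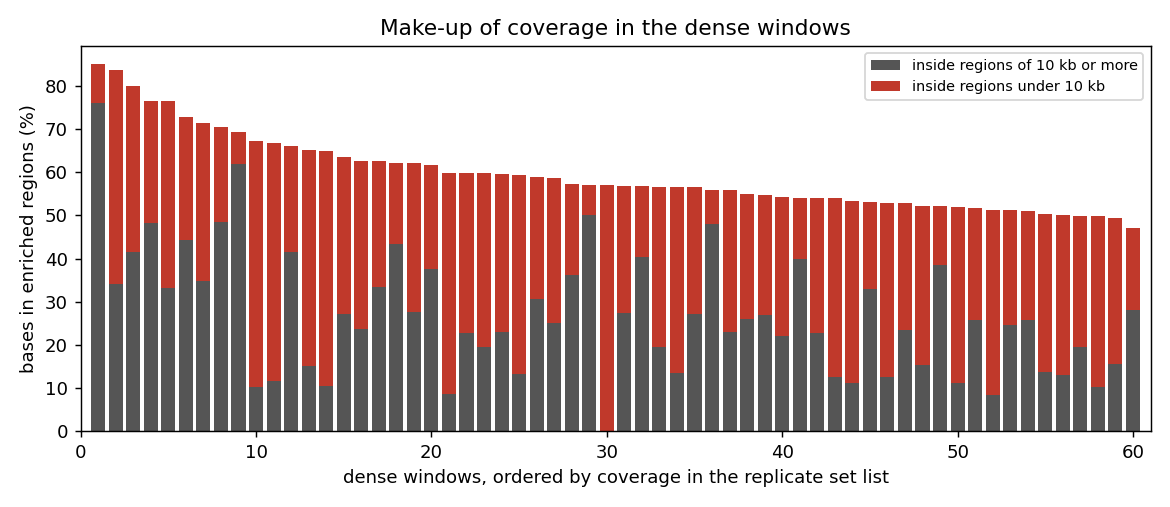
Percent of bases inside enriched regions of the replicate set in each of the 60 dense windows, divided into regions of 10 kb or more (dark) and regions under 10 kb (red). The wide part runs from 0% to 89.6% of the covered bases, with a median of 43.0%.

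The number of regions under 10 kb in a dense window ran from 2 to 18, with a median of 9. The window with the most was 2R from 2500001 to 2600000, with 18 and a single wide region. Next were 2R from 5700001 to 5800000 and 3L from 8500001 to 8600000, with 17 each. The fewest, 2 each, lay in 2R from 11600001 to 11700000, 3R from 26100001 to 26200000 and the X from 1500001 to 1600000. In those 3 windows wide regions took 87.7%, 89.4% and 89.6% of the covered bases in the replicate set. In the single replicates the share for the 3R window was lower, at 27.4% in replicate 1 and 68.1% in replicate 2. In the replicate set list, dense windows thus included both windows with 17 or 18 separate smaller regions and windows filled by a few long ones. Coverage common to both replicates was 42.0% to 46.1% in the 3 windows with most smaller regions and 48.9% to 75.4% in the 3 with fewest.

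The 5 densest windows held 2 or 9 smaller regions each, no more than the median of 9. In the replicate set list the 3R window from 26100001 holds 3 wide regions of 15807, 21677 and 38457 bp. Its smaller regions are 26140378 to 26143574 and 26188662 to 26194500. The first of these, 3197 bp wide, stood at 1.51-fold in the replicate set, 1.57-fold in replicate 1 and 1.58-fold in replicate 2, and the other at 1.54-fold in the replicate set. The X window from 1500001 is filled mainly by the 38989 bp region from 1528534 to 1567522, at 3.45-fold in the replicate set, 3.38-fold in replicate 1 and 3.79-fold in replicate 2. A 48591 bp region, 1474396 to 1522986, also reaches into it from the window before. Its smaller regions were 1567598 to 1568746, found in neither single replicate, and 1585268 to 1591334 at 1.80-fold. The 2R window from 3600001 instead holds 9 smaller regions beside its wide ones. They ran from 1.38-fold, at 3660068 to 3663600, to 3.68-fold, at 3675716 to 3681736. In the 3R window from 11100001, 9 smaller regions ran from 1.28-fold to 2.495-fold, and in the X window from 19500001, 9 ran from 1.34-fold to 3.07-fold. None of the smaller regions in these 5 windows reached 4-fold in the replicate set.

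Regions in dense windows lay closer together than those of all other windows, and differed less from windows covered 30 to 40%. The median gap to the nearest region, edge to edge, was 695 bp for the 557 regions and 1443 bp for the 7093 others in the replicate set. In replicate 1's own list it was 917 bp (614 regions) against 1802 bp, and in replicate 2's it was 1100 bp (559 regions) against 2475 bp. The difference over the 2 replicates was −1130 ± 346 bp (SD, n = 2). In windows 30 to 40% covered the median gap was 889 bp in the replicate set, 937 bp in replicate 1 and 1430.5 bp in replicate 2. In the replicate set, 318 of the 557 (57.1%, 95% Wilson interval 52.9 to 61.1) lay within 1 kb of another region, against 52.4% in windows 30 to 40% covered, 40.6% of the others and 41.8% of all regions under 10 kb. The interval takes regions as independent, but neighbouring regions can each count the other, so it may be too narrow. The closeness also follows in part from the choice of windows by coverage. Only 7 (1.26%) were over 10 kb from any other region, against 3.17% in windows 30 to 40% covered and 12.4% of the others. The nearest region was 10 kb or wider for 15.1%, against 9.16% in windows 30 to 40% covered and 3.91% of the others. On 2L, 2R, 3L, 3R and the X the median gap was 463 to 1245 bp shorter in dense windows than in the others; on chromosome 4 it was longer, at 3187 against 621 bp, with 3 regions in its dense window.

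The open stretches inside dense windows were short. The longest uncovered stretch of a dense window had a median of 13.3 kb against 41.6 kb in the other windows in replicate 1, and 14.7 kb against 42.9 kb in replicate 2. In windows 30 to 40% covered this median was 20.9 kb in replicate 1 and 21.3 kb in replicate 2, nearer to the dense windows. Joining regions less than 1 kb apart gave chains, and 159 of the 557 regions (28.5%) were in a chain of at least 3 against 17.7% of the others. The longest chain on the 6 arms ran for 72.3 kb on 2L, from 5139278 to 5211558, and joined 6 regions, 3 of them smaller ones in a dense window. Another on 2R, from 9739160 to 9796188, joined 6 regions over 57.0 kb. A chain of 6 with no wide region lay on 2R from 14043208 to 14064902. Chains of more regions existed outside, up to 9 on 3R from 17009704 to 17058660.

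**Figure D5:**
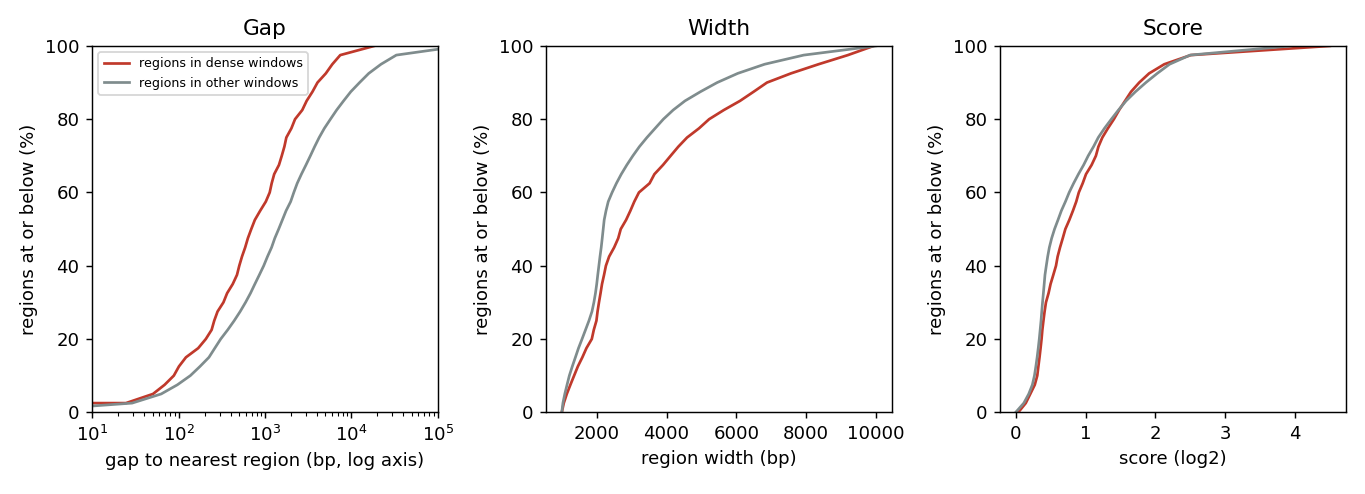
Cumulative percent of regions under 10 kb at or below each gap to the nearest region (log axis, in bp), each width (bp) and each score (log2), for the 557 regions in dense windows and the 7093 in other windows of the replicate set. The gap curves stand apart over most of their range, with medians of 695 and 1443 bp, the width curves above about 2000 bp, and the score curves cross near their top.

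Regions in dense windows were also wider than those of all other windows. Their median width was 2689 bp against 2187 bp in the replicate set, 2712 bp against 2208 bp in replicate 1 and 2844 bp against 2236.5 bp in replicate 2. The difference over the 2 replicates was 556 ± 73.2 bp (SD, n = 2). Widths of 5 to 10 kb were found for 22.1% of the 557 and for 12.4% of the others. Windows 30 to 40% covered were near the dense ones, with median widths of 2597 bp in the replicate set, 2556 bp in replicate 1 and 2521.5 bp in replicate 2, and 19.0% of regions at 5 to 10 kb. In the replicate set the median was larger by 484 to 775 bp on 2L, 2R, 3R and the X and by 40 bp on 3L. The lists differed in this, since on 3L it was larger by 298 bp in replicate 1 and 189 bp in replicate 2. On 2L it was larger by 183 bp in replicate 1 and 657 bp in replicate 2. On chromosome 4 it was smaller in the replicate set, at 2001 bp (3 regions) against 2218 bp. In the single replicates it was larger there, at 3498 bp (5 regions) against 2081.5 bp in replicate 1 and 4549 bp (4 regions) against 2558 bp in replicate 2. The narrowest of the 557 was 1001 bp on 3L, 9383116 to 9384116, the narrowest width in the replicate set list. The widest, 9933 bp on 2R from 19944306 to 19954238, stood at 3.76-fold, and the narrowest region above the limit in a dense window was 10037 bp on 2L, 154414 to 164450.

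Scores were somewhat higher in dense windows than in all other windows. The median score was 0.71 in dense windows and 0.56 in the others in the replicate set, 0.84 and 0.75 in replicate 1, and 1.05 and 1.00 in replicate 2. The difference over the 2 replicates was 0.07 ± 0.03 on the log2 scale (SD, n = 2). In the replicate set it was 0.15, larger than in either replicate, so this SD does not describe the spread of that value. In the higher-scoring 50% of each list, which left 13 dense windows and 60 regions, the difference in the replicate set turned to −0.0464. The counting error of a single score in the replicate set, as an upper bound, had a median of 0.08 in dense windows and 0.10 in the others. The median score was higher in dense windows on 3L, 3R, chromosome 4 and the X in all 3 lists, and lower on 2L in all 3, for example 0.57 against 0.60 in the replicate set. On 2R it was higher in the replicate set, at 0.72 against 0.57, and in replicate 1, at 0.80 against 0.77, but lower in replicate 2, at 0.98 against 1.04. The top 25% of the list by score held 137 of the 557 (24.6%), where it held 23.0% of all regions under 10 kb; the top 10% held 8.26% of them and 9.71% of the others. The lowest 25% held 20.1%, where it held 26.6% of all. Windows 30 to 40% covered had nearly the same shares, with 24.6% of their regions in the top 25% and 20.4% in the lowest. The median score was 0.71 in dense windows and 0.72 in these in the replicate set, 0.84 in both in replicate 1, and 1.05 in dense windows and 1.08 in these in replicate 2.

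Score went with width. Wider regions had higher scores in both groups, with Spearman's rho of 0.66 across the 557 regions and 0.66 across the others, which share libraries and are not independent replicates. In replicate 2's list rho was 0.54 across 559 regions in dense windows and 0.64 across the others. Among regions of one width class of the replicate set, the medians differed by at most 0.06. From 1.5 to 2.5 kb the median scores were 0.47 in dense windows (175 regions) and 0.45 in the others, from 2.5 to 5 kb 0.88 (184) and 0.94, and from 5 to 10 kb 1.20 (123) and 1.14. Under 1.5 kb they were 0.35 (75) and 0.36. In replicate 2 the medians differed more from 2.5 to 5 kb, at 1.19 in dense windows and 1.32 in the others. From 1.5 to 2.5 kb they were 0.82 and 0.76. The median gap was shorter in dense windows in each class of each list, for example 544 against 1113 bp from 2.5 to 5 kb in the replicate set. Recovered input reads per kb, which are lower limits, had medians of 216 in dense windows and 195 in the others in the replicate set, 95.8 and 92.3 in replicate 1, and 106 and 104 in replicate 2. Their part in the calling of regions was not tested.

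Regions of one dense window differed in score. The difference between the highest and the lowest score in a window had a median of 1.77 and reached 4.32. The window with the highest median, 1.88 over 5 regions, was 2R from 20800001 to 20900000, and the one with the lowest, 0.39 over 13 regions, was 2L from 100001 to 200000. That 2L window nevertheless contained one of the 10 strongest regions.

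The 10 highest scores among regions overlapping both replicates ran from 6.83-fold to 22.6-fold in the replicate set, from 6.55-fold to 20.3-fold in replicate 1 and from 7.28-fold to 26.8-fold in replicate 2, over widths of 2.29 to 9.12 kb. The strongest was 3L from 3191494 to 3200610, which had the highest score of all 8273 regions, at 22.6-fold (95% counting interval 19.8 to 25.7). The next were on 3R, 8289876 to 8294618 at 16.1-fold (13.3 to 19.6) and 11067226 to 11073658 at 15.3-fold (10.7 to 21.7). These 3 regions and the fourth, 3L from 9373942 to 9382348 at 11.2-fold (10.7 to 11.7), ranked 1, 4, 6 and 16 in the list.

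The remaining 6 lay close together in level. They were 2R from 5439036 to 5443854 at 7.63-fold (7.22 to 8.07), 2R from 11621922 to 11624474 at 7.47-fold (5.09 to 10.9) and 2L from 1111964 to 1120180 at 7.23-fold (6.90 to 7.58). The region on 2L from 126696 to 130298 had 7.10-fold (6.64 to 7.60). Both others were on 3L, 3068854 to 3073578 at 7.02-fold (6.58 to 7.50) and 9497202 to 9499490 at 6.83-fold (6.28 to 7.43). The counting intervals of these 6 overlap in every pair, and their order was not tested. A region on 2R from 5040946 to 5042778 scored 11.7-fold but was found in neither single replicate, and was singled out after its value was seen. Its ratio reduces to 11 ChIP reads to 1 input read, and its interval runs from 1.51 to 90.5.

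At the other end, the 3 lowest scores were 1.03-fold on 2R from 19898632 to 19900370 (0.834 to 1.26), 1.03-fold on 3R from 19064792 to 19066678 (0.905 to 1.18) and 1.05-fold on 3R from 19073732 to 19075560 (0.925 to 1.18). All 3 intervals include 1. A counting interval wholly above a score of 0 was found for 90.3% of the 557 and 84.8% of the others.

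The replicates overlapped in most of these regions. Of the 557, 405 (72.7%, 95% Wilson interval 68.9 to 76.2) overlapped a region of both replicates by at least 1 bp, where 65.9% of all regions under 10 kb on the 6 arms did and 65.4% of those in the other windows. The windows were chosen for coverage in both replicates, so part of this follows from the choice. A further 76 overlapped replicate 1 alone, 20 replicate 2 alone and 56 neither (10.1%, where 14.4% of all regions under 10 kb did). Windows 30 to 40% covered, just below the dense ones, had 73.7% in both. In regions overlapping both replicates the median scores were 0.96 in dense windows and 0.95 in the others. Scores of the 343 regions that met exactly 1 region in each replicate had Pearson's r of 0.94 across regions, and the 4100 such regions of the other windows had 0.95. In bases, both replicates shared 81.5% of what either covered in dense windows and 72.2% in the others.

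Choosing windows from a single replicate left the other out of that choice, although the threshold itself was set with earlier results of these data known. Of 131 windows at least 40% covered in replicate 1, 88 (67.2%, 95% Wilson interval 58.7 to 74.6) were at least 40% covered in replicate 2, where 7.78% of all windows were; their median coverage in replicate 2 was 42.1%, against 12.98% in the rest. Of 94 windows chosen in replicate 2, 88 (93.6%, 86.8 to 97.0) passed in replicate 1, where 10.8% of all windows did, with a median of 49.5% against 15.6%. The 88 windows are the same in both directions, so the shares describe a single overlap and are not independent of each other. Regions under 10 kb of replicate 2 had a median gap of 1314 bp in windows chosen in replicate 1 and 2684 bp elsewhere, and median widths of 2619 and 2219 bp. Regions of replicate 1 in windows chosen in replicate 2 had a median gap of 932 bp against 1886.5 bp, and widths of 2616 and 2200 bp. Median scores in these held-out lists were 1.06 against 0.99 in replicate 2 and 0.81 against 0.75 in replicate 1. The labels do not state whether the replicates are separate collections of larvae, so the likeness between them may be technical.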

How the data were processed

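The authors deposited 3 lists of regions on FlyBase release 5, per the file headers: 1 for each of 2 ChIP replicates and 1 for the replicate set. Per the submitters' processing notes, the aligner was Bowtie 0.12.7. The region caller is not given in the sources used here. Each region has a start, an end and a log2 score deposited by the authors. Every enriched score matched the log2 of a whole-number ratio with a constant added per list (−0.08, 0.27 and 0.09; relative tolerance 1e-11, denominators up to 20000). The ratios are read as ChIP over input reads in lowest terms, so each count is a lower limit.

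Regions listed as enriched were used. Coverage, midpoints, gaps and overlaps (at least 1 bp) were computed with pandas 2.3.3, numpy 2.4.6 and scipy 1.17.1 under Python 3.11.15, plotted with matplotlib 3.10.9, and checked on simulated lists. Coverage in both replicates means bases common to both lists. The 95% Wilson intervals given with shares of regions or windows treat these as independent. No test was made, because the windows were chosen on the same measurements. The set, its rule and the windows' threshold were chosen with earlier results of these data known. Windows and regions were named by a rule: the 5 densest windows, the densest per arm, 3 each side of the threshold, the 3 with most and fewest regions, runs of windows, the 10 highest and 3 lowest scores, and the width extremes; other named items were chosen after their values were seen. Sequences and gene positions on release 5 were not used here.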

Additional observations from a re-analysis of the deposited data

How the results depend on the processing

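Windows at least 30% covered in both replicates numbered 179, with 1692 regions. Of these windows 40.8% had a neighbour, the score difference was 0.20 and wide regions held 24.7% of covered bases. At 50% there were 13 windows and 87 regions, 0% with a neighbour, a score difference of 0.28, a width difference of 1130 bp and 43.9% in wide regions. Shifting the tiling by 50 kb gave a width difference of 607 bp and 14.0% of dense windows with a neighbour. In the higher-scoring 50% of each list 13 windows and 60 regions were left, 0% with a neighbour; the gap difference was −2354 bp, the width difference 1167 bp, 55.8% of bases were in wide regions, and 80.0% of regions overlapped both replicates. The score difference there reversed to −0.0464; the cause was not tested. With no width limit the score difference was 0.26, the width difference 934 bp and the share in both replicates 76.5%. With 50% reciprocal overlap that share was 62.7%. Leaving out a replicate in choosing windows gave 94 to 131 windows, 918 to 1327 regions, 24.8% to 27.4% in wide regions, gap differences of −850 to −794 bp, width differences of 444 to 470 bp, a score difference of 0.13, 23.4% to 26.7% with a neighbour and 69.9% to 72.1% in both. After seeing the data, 40% in each replicate taken separately gave 88 windows, 851 regions and 27.7% in wide regions; without the short windows, 59 windows remained. Of 70 alternative values 38 stayed, 31 moved and 1 reversed. Differences and the share in wide regions counted as stayed within the SD of the 2 replicates around the main value. Shares with a Wilson interval counted as stayed inside it. Counts had a separate limit, under which 88 windows against 60 counted as stayed. The tally therefore depends on these limits and is not a rate of robustness. No paired analysis was possible because region lists exist here only for the ChIP libraries, which form 1 group.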

Other observations

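Regions listed as depleted entered none of the comparisons above. Of the 47 in the replicate set, 0 had a midpoint in a dense window, which allows a share of up to 6.38% (3 of 47), where dense windows make up 4.94% of the bases. The 7 depleted regions of replicate 1 and the 2 of replicate 2 likewise had no midpoint in a dense window, and with so few regions no difference from the other windows can be read.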
